A study of Mus musculus with 2 samples.

Results

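Aminoacyl-tRNA synthetases are the enzymes that load each tRNA with its amino acid, and this set holds 38 genes of the 44787 gene rows in the deposited table: 20 enzymes of the cytosol, 16 enzymes of mitochondria and 2 scaffold proteins, Aimp1 and Aimp2. Members were taken by gene symbol, all 38 were found under the symbols listed, and the mitochondrial enzymes are those whose symbol ends in 2. The samples are hindlimb muscle of C57BL/6 mice aged 30 days after birth, sequenced as 1 WT and 1 SRSF1-MKO library. SRSF1 belongs to the serine/arginine-rich splicing factors. The labels leave MKO unexplained, and the sources used here do not state what drives any deletion, how many animals a library holds, or whether strand was kept. Levels are in FPKM, which counts reads or fragments for each kilobase of a transcript and each 1000000 mapped reads. With 1 library per group no test between genotypes was possible, and every interval below is an exact binomial 95% interval on read numbers that covers counting error only.

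A cell needs a charged tRNA for every amino acid that the ribosome reads, and animal cells keep separate enzymes for the cytosol and for the mitochondrial ribosome, all encoded in the nucleus. Gars and Kars are exceptions, since each gives both the cytosolic and the mitochondrial form of its enzyme from 1 gene. Many cytosolic synthetase genes are known targets of ATF4, the transcription factor that is made more when translation initiation is restrained by phosphorylation of eIF2, and ATF4 binds with C/EBP partners to a composite DNA element. Skeletal muscle makes large amounts of sarcomere protein and respiratory chain, so it relies on both sets of enzymes.

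The library totals recovered from the steps of the FPKM values were 23146640 reads for WT and 21350284 for SRSF1-MKO. Srsf1 was at 13.7 (WT) and 6.70 (SRSF1-MKO) FPKM. The submitters' description lines contradict each other about which column belongs to which sample, so each column was assigned by its own name, and every direction below rests on that. Muscle markers were abundant in both libraries, with summed levels of 50336 and 26298 FPKM over 6 genes, but they differed in direction: Myh4 was at 28777 and 7176 FPKM, Des at 1532 and 4385 FPKM and Mb at 242 and 2135 FPKM. Markers of other cells were not constant: the 8 macrophage markers summed to 38.1 (WT) and 97.5 (SRSF1-MKO) FPKM. Lyz2 alone was at 18.1 and 56.3 FPKM, and none was listed at 0. Of the 7 that passed the level filter, 4 were at least 1.5-fold higher, against 23.7% of all genes tested. With the scaling to the all-gene median described below, 2 were higher, against 11.8%. The 4 Schwann cell markers summed to 35.6 and 72.0 FPKM, although S100b among them was at 0.520 and 0.338 FPKM. The 4 adipocyte markers summed to 16.3 and 4.47 FPKM and the 4 endothelial markers to 59.1 and 39.8 FPKM. The 5 genes listed as T and NK cell markers summed to 0.676 and 1.29 FPKM, most of it from Ptprc at 0.543 and 1.09 FPKM. Cd8a was listed at 0 in both libraries, Nkg7 at 0 in WT and Cd3e at 0 in SRSF1-MKO. Fibro-adipogenic markers summed to 538 and 375 FPKM, with Col1a1 at 276 and 121 FPKM but 3 of 5 markers above their WT level. Erythroid markers summed to 254 and 226 FPKM and satellite cell markers to 4.52 and 7.17 FPKM. Among the latter, Cdh15 was at 3.53 and 5.75 FPKM, Myf5 at 0.391 and 0.865 FPKM and Pax7 at 0.604 and 0.550 FPKM. The part of these cells in the results was not tested, and in bulk tissue fewer cells of a type and less RNA per cell cannot be told apart.

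Among the 20 cytosolic synthetases 10 were called higher in the SRSF1-MKO library, and among the mitochondrial ones 1 was. On the log2(FPKM + 1) scale, which understates differences of low genes, 10 of the 20 cytosolic enzymes passed 1.5-fold upwards and 0 downwards, and the median log2 ratio was 0.59. Tarsl2, a relative of the threonine enzyme Tars, is not among these 20. It was at least 1.5-fold lower and is described below with the partner genes. Over all 10477 genes whose mean reached 1 FPKM, 23.7% passed upwards and 8.13% downwards, with a median of 0.21. Of the 16 mitochondrial enzymes, 11 reached a mean of 1 FPKM; 1 of these was at least 1.5-fold higher, 2 were lower, and their median log2 ratio was -0.18. The 5 mitochondrial enzymes averaging at least 5 FPKM had a positive median of 0.35, with 1 higher and 0 lower, so the sign of the mitochondrial median depended on the level filter. Over the 5160 genes whose mean level lay in the range of the cytosolic enzymes the median was 0.29, and over the 7520 genes in the range of the mitochondrial enzymes without Lars2 it was 0.19. In the cytosolic range 28.8% of genes passed 1.5-fold upwards and 8.43% downwards. The shares in the mitochondrial range were 21.8% and 8.30%. With 1 library per genotype the difference between the compartments has no test.

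The counts depended on how the libraries were scaled. The median log2 ratio of genes averaging at least 5 FPKM was 0.32, and when the SRSF1-MKO column was scaled to bring this median to 0, 5 cytosolic enzymes were higher by 1.5-fold (Gars, Sars, Nars, Hars and Cars) and 3 were lower (Dars, Farsb and Vars). The background under that scaling was 11.8% higher and 15.4% lower. Of the mitochondrial enzymes, 0 were then higher and 3 were lower (Tars2, Sars2 and Rars2).

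**Figure D1:**
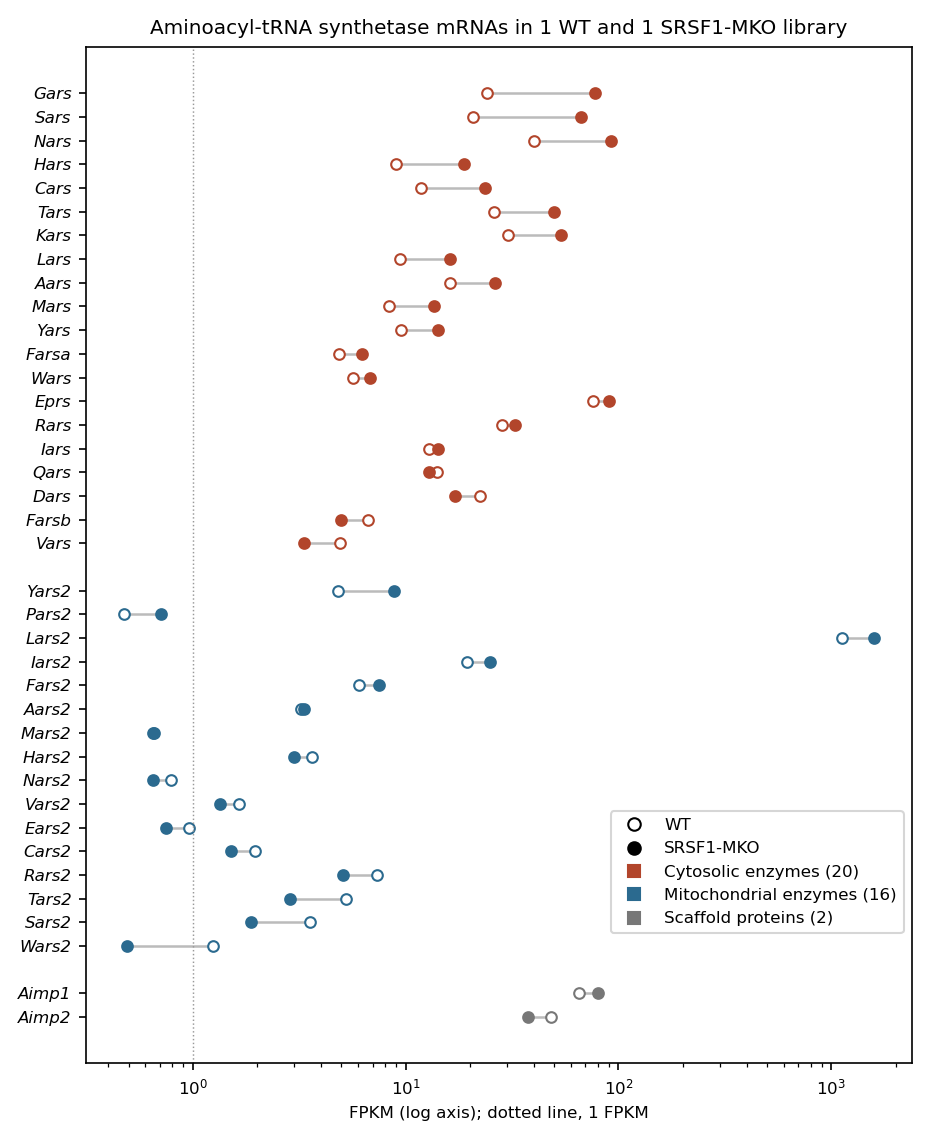
FPKM of each member (log axis) in the WT library (open points) and the SRSF1-MKO library (filled points), grouped by compartment and ordered by the ratio between libraries. Among cytosolic enzymes 16 of 20 filled points lie to the right of the open ones, from Gars (24.1 to 77.9 FPKM) downwards, while 10 of 16 mitochondrial enzymes have the filled point on the left; Lars2 stands far above all others.

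Glycyl-tRNA synthetase and seryl-tRNA synthetase had the largest ratios. Gars (ENSMUSG00000029777.10; GRCm38, plus strand of chromosome 6, 55038007 to 55079500) was at 24.1 (WT) and 77.9 (SRSF1-MKO) FPKM. This is a ratio of 3.24 (95% counting interval 3.04 to 3.45), on 1331 and 3973 reads. Sars (ENSMUSG00000068739.13, chromosome 3, 108424865 to 108445209, minus strand) was at 20.8 (WT) and 66.9 (SRSF1-MKO) FPKM (ratio 3.22, interval 2.98 to 3.47). The enzymes of these 2 genes attach glycine and serine, the amino acids that one-carbon metabolism interconverts. Asparaginyl-tRNA synthetase, Nars, was at 40.2 (WT) and 92.0 (SRSF1-MKO) FPKM and was the most abundant cytosolic synthetase mRNA of that library, ahead of Eprs at 90.0 FPKM. Gars, Sars and Nars were the 3 cytosolic members that also passed 2-fold on the log2(FPKM + 1) scale, against 9.44% of all genes tested that were higher and 3.12% that were lower at that limit.

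The other 7 enzymes past 1.5-fold had ratios between 1.62 and 2.09. Hars, the histidine enzyme, was at 9.01 (WT) and 18.8 (SRSF1-MKO) FPKM (ratio 2.09, interval 1.85 to 2.36). Cars, the cysteine enzyme (chromosome 7, 143557230 to 143600090, minus strand), was at 11.8 (WT) and 23.7 (SRSF1-MKO) FPKM. Tars, for threonine, was at 25.9 (WT) and 49.9 (SRSF1-MKO) FPKM, nearly the same ratio as that of Cars (1.93 and 2.01). A stretch of 122 bases of Tars is 94.3% identical to transcripts of Gtpbp4, at 25.7 and 59.0 FPKM. Another of 151 bases is similarly close to those of G3bp2, at 23.2 and 16.6 FPKM. These stretches begin at bases 2993 and 3012 of a transcript of 4005 bases, where the length implied by the Tars reads was 2636. Kars, the lysine enzyme that also serves mitochondria (chromosome 8, 111993443 to 112011323, minus strand), was at 30.3 (WT) and 53.9 (SRSF1-MKO) FPKM. Lars, for leucine, was at 9.44 and 16.2 FPKM, Aars, for alanine, at 16.2 and 26.4 FPKM, and Mars, for methionine, at 8.40 and 13.6 FPKM, in WT and SRSF1-MKO. The lowest lower bound among the counting intervals of these 7 ratios was 1.47, for Mars. The last 67 bases of the longest Mars transcript overlap transcripts of Ddit3, the stress factor CHOP, which lies on the opposite strand. Ddit3 was at 12.3 (WT) and 47.4 (SRSF1-MKO) FPKM. The sources used here do not state how reads there were assigned, and the Mars ratio is uncertain to that extent. Hars overlaps the neighbouring Hars2, also on the opposite strand, by its first 195 bases. The last 1326 bases of the longest Aars transcript, from base 4425, match transcripts of Exosc6, which was at 1.82 and 2.37 FPKM. The length implied by the Aars reads was 4474 bases, shorter than the 5750 of that transcript.

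The other 10 cytosolic enzymes did not pass 1.5-fold. Yars, the tyrosine enzyme, lay just under the limit, at 9.53 (WT) and 14.2 (SRSF1-MKO) FPKM (ratio 1.49). Eprs, which joins the glutamate and proline enzymes in 1 protein, was the most abundant in WT and little different, at 76.3 (WT) and 90.0 (SRSF1-MKO) FPKM (ratio 1.18, interval 1.15 to 1.21). Rars (arginine, 28.3 and 32.8 FPKM), Wars (tryptophan, 5.69 and 6.78 FPKM) and Iars (isoleucine, 12.9 and 14.3 FPKM) had ratios between 1.10 and 1.19, and for these 3 and Eprs the sign turned negative under the scaling to the all-gene median. Iars has a near-identical copy in the predicted gene Gm4849 (96.0% identity over 1656 bases), which is listed at 0 in both libraries.

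The cytosolic enzymes below a ratio of 1 were Qars, Dars, Farsb and Vars. Vars, for valine, was lowest, at 4.90 (WT) and 3.34 (SRSF1-MKO) FPKM (ratio 0.681, interval 0.588 to 0.789). Dars, for aspartate, was at 22.4 (WT) and 17.1 (SRSF1-MKO) FPKM (ratio 0.760). Qars, for glutamine, was at 14.1 and 12.9 FPKM, and its interval of 0.823 to 1.01 includes a ratio of 1. The phenylalanine enzyme is built from the products of Farsa and Farsb, and the 2 mRNAs differed in direction: Farsa was at 4.86 (WT) and 6.25 (SRSF1-MKO) FPKM (ratio 1.28, interval 1.07 to 1.55), Farsb at 6.66 and 4.98 FPKM (ratio 0.747, interval 0.632 to 0.883). The deposited table places Farsb, Vars and Yars, and also Vars2 and Srsf1, on other named sequences rather than on their chromosomes. The sources used here do not state what these sequences are or whether reads were split between copies.

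**Figure D2:**
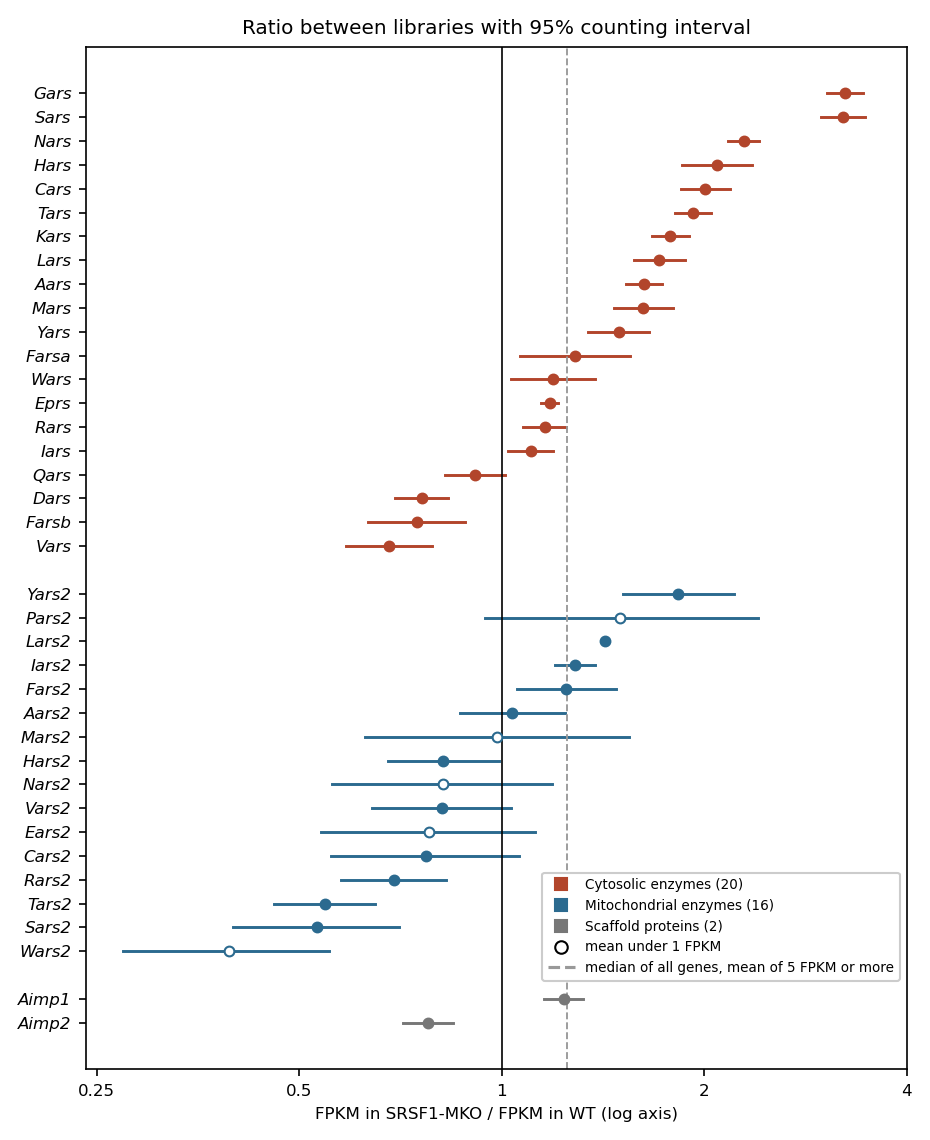
FPKM in SRSF1-MKO over FPKM in WT for each member (log axis), with the exact binomial 95% interval from read counts; open points have a mean under 1 FPKM and the dashed line is the median of all genes averaging at least 5 FPKM. Intervals of 16 cytosolic enzymes lie above 1 and 3 below, while 4 mitochondrial intervals lie above 1, 5 below and 7 include it; the bars hold no variation between animals.

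Enzymes of the multisynthetase complex had a lower median ratio than the others, a difference with no test. In animal cells 8 cytosolic enzymes (Eprs, Iars, Lars, Mars, Qars, Rars, Kars and Dars) are held with Aimp1, Aimp2 and Eef1e1 in the multisynthetase complex. Of these 8 enzymes, 3 were at least 1.5-fold higher (Kars, Lars and Mars), and the median log2 ratio was 0.22, close to the 0.21 of all genes tested. Of the 12 enzymes outside the complex, 7 were higher, with a median of 0.80, against 23.7% of all genes called higher. Under the scaling to the all-gene median, 0 of the 8 complex enzymes were higher and 1 (Dars) was lower. With the scaffold genes, 0 of 11 were higher and 2 (Dars and Aimp2) were lower. Of the 12 enzymes outside the complex, 5 were then higher and 2 were lower. The shares of all genes under that scaling were 11.8% higher and 15.4% lower. Aimp1, the scaffold that is also released as a cytokine, was at 64.9 (WT) and 80.3 (SRSF1-MKO) FPKM, with the sign turned under that scaling. Aimp2, which ties the enzymes into the complex, was at 48.2 (WT) and 37.5 (SRSF1-MKO) FPKM (ratio 0.777, interval 0.713 to 0.848). The last 488 bases of its longest transcript match transcripts of Eif2ak1, on a strand not recorded here. Eif2ak1 was at 15.8 and 19.6 FPKM. Eef1e1, the third scaffold protein, was at 6.07 and 10.5 FPKM (ratio 1.73). The split of the enzymes by complex was made with their values known and has no test.

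Counts were also unequal between structural classes, again with no test. Synthetases fall into class I, with a Rossmann-fold active site, and class II, with an antiparallel-sheet active site. Among cytosolic enzymes 7 of 10 in class II and 3 of 9 in class I were at least 1.5-fold higher, with median log2 ratios of 0.87 and 0.22; Eprs holds both kinds of site and is in neither count. The share of all genes called higher was 23.7%. Aars, Gars, Hars, Nars, Sars and Tars, all called higher, are both in class II and outside the multisynthetase complex. The split by class and the split by complex are therefore not independent. Under the scaling to the all-gene median class II held 4 higher and 2 lower and class I held 1 of each. The shares of all genes were then 11.8% higher and 15.4% lower. Among mitochondrial enzymes this order was not seen, with medians of -0.22 over 5 class II and 0.09 over 6 class I members that passed the level filter.

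Of the 13 cytosolic synthetases commonly named as ATF4 targets, 8 passed 1.5-fold upwards and 0 downwards (median log2 ratio 0.67), where the shares over all genes were 23.7% and 8.13%. Of the other 7, 2 were higher (Hars and Kars), with a median of 0.21. Under the scaling to the all-gene median the 13 held 4 higher and 1 lower, and the other 7 held 1 higher and 2 lower. Over all genes 11.8% were then higher and 15.4% lower. The exceptions among the 13 were Eprs, Iars, Vars, Wars and Yars. The amino acid response genes of the same pathway differed more: 12 of 14 passed 1.5-fold upwards and 0 downwards, and the median was 1.87. Atf4 itself was at 45.8 (WT) and 215 (SRSF1-MKO) FPKM, and Trib3, a pseudokinase induced by it, had 1 read in WT and 234 in SRSF1-MKO (ratio 254, interval 45.1 to 10062). Slc7a5, a transporter of large neutral amino acids, was at 0.418 and 4.99 FPKM, and Mthfd2, a mitochondrial one-carbon enzyme, at 3.41 and 93.3 FPKM. The least different was Chac1, which breaks down glutathione, at 3.80 and 3.94 FPKM. Asns, which makes asparagine, was at 1.04 and 23.3 FPKM, a ratio of 22.4 where the largest among synthetases was 3.24.

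Promoter sequence was examined because the ATF4 composite element has a known core, searched here as TGATGNAAN on both strands, from 250 bases before to 50 bases after the annotated start (RefSeq, GRCm38.p6). Of 13 cytosolic enzymes with an entry used here, 5 held it (38.5%), against 3.95% of the 32851 promoters of the same length. None of 14 mitochondrial enzymes and neither scaffold gene held it. For each of the 5, 1 matched stretch of 30 bases is shown as an example, read along the gene's strand with the 9 bases of the match in capitals; apart from Yars, capitals show the element as it reads on the opposite strand.
Aars (chr8:111033840-111033869, plus strand): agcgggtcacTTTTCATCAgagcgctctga
Gars (chr6:55037960-55037989, plus strand): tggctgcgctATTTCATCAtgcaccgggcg
Iars (chr13:49682126-49682155, plus strand): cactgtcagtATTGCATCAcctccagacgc
Tars (chr15:11399655-11399684, minus strand): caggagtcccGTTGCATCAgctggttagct
Yars (chr4:129189896-129189925, plus strand): cgagctcagcTGATGCAACccgacgggact
Relative to the start, the stretches shown had their match at bases 9 to 17 in Aars, -31 to -23 in Gars, 7 to 15 in Iars, -16 to -8 in Tars and 4 to 12 in Yars. Of the 5 genes with a match, 3 were at least 1.5-fold higher (Gars, Tars and Aars), and their ratios ran from 1.10 for Iars to 3.24 for Gars. Of the 8 without a match, 3 were higher (Sars, Kars and Mars), with ratios from 0.747 to 3.22. Cars, Hars, Lars and Nars, also called higher, had no entry used here and are in neither group. A match of letters does not show that the factor binds there, and the absence of a match holds only for this window.

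The 250 bases before the start are shown for the cytosolic genes Gars and Sars, which had the largest ratios, and for Yars2, the only mitochondrial enzyme above the limit. Capitals mark the TGATGNAAN match where there is one.
Gars (chr6:55037751-55038000, plus strand): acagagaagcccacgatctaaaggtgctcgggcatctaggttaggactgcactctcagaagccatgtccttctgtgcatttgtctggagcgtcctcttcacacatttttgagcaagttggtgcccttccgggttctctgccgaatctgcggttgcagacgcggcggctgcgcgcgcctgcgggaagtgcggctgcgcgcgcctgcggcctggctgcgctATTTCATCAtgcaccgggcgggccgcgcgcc
Sars (chr3:108445260-108445509, minus strand): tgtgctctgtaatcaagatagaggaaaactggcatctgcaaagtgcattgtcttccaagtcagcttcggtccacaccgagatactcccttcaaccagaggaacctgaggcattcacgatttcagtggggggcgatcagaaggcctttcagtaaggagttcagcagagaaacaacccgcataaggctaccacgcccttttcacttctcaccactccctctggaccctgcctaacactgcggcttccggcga
Yars2 (chr16:16302715-16302964, plus strand): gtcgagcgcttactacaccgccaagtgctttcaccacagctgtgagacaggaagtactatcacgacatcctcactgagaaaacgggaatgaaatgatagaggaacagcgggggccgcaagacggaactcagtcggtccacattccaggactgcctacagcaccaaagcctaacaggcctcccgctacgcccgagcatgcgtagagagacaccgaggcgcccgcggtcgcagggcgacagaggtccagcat
Gars and Sars, with ratios of 3.24 and 3.22, differed in this window: the element was found 31 bases before the start of Gars and not in Sars. The G and C share was 62.4% for Gars, 52.4% for Sars and 58.4% for Yars2.

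Mitochondrial synthetases load the tRNAs that read the mitochondrial genome, whose mRNAs encode subunits of the respiratory chain. Apart from Lars2 and Iars2 they were low, at most 8.82 FPKM in either library, and 10 of 16 had a ratio below 1. Yars2, for tyrosine (plus strand of chromosome 16, 16302965 to 16309640), was the mitochondrial enzyme called higher, at 4.82 (WT) and 8.82 (SRSF1-MKO) FPKM (ratio 1.83, interval 1.52 to 2.22, on 177 and 299 reads). Under the scaling to the all-gene median it no longer passed 1.5-fold. Iars2, for isoleucine, was at 19.3 (WT) and 24.9 (SRSF1-MKO) FPKM (ratio 1.29). The last 2034 bases of its longest transcript match transcripts of Rab3gap2, at 2.72 and 3.52 FPKM. That stretch begins at base 3438 of 5471, where the length implied by the Iars2 reads was 3540. Fars2, for phenylalanine, was at 6.04 and 7.53 FPKM (ratio 1.25, with the sign turned under the scaling to the all-gene median). Aars2, for alanine, was at 3.22 and 3.34 FPKM, with an interval of 0.866 to 1.24, and its sign too turned under that scaling.

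The lowest ratios among mitochondrial enzymes belonged to Wars2, Sars2, Tars2 and Rars2. Tars2, for threonine (chromosome 3, 95739976 to 95760206, minus strand), was at 5.24 (WT) and 2.86 (SRSF1-MKO) FPKM (ratio 0.546, interval 0.459 to 0.648, on 403 and 203 reads). Sars2, for serine (plus strand of chromosome 7, 28741992 to 28753871), was at 3.55 (WT) and 1.89 (SRSF1-MKO) FPKM (ratio 0.532, interval 0.399 to 0.703). These 2 were the members at least 1.5-fold lower on the log2(FPKM + 1) scale. Rars2, for arginine, was at 7.34 and 5.07 FPKM (ratio 0.691). Wars2, for tryptophan, had the smallest ratio of all 38 members, 0.393 (0.274 to 0.554), but at 1.25 and 0.491 FPKM, on 127 and 46 reads, its mean was under the level filter. A stretch of 76 bases of Wars2 is 94.7% identical to transcripts of Gfm2, which was at 9.82 and 3.70 FPKM.

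The remaining mitochondrial enzymes gave no clear difference at this depth or a small one. Hars2 (histidine) was at 3.64 (WT) and 2.98 (SRSF1-MKO) FPKM, with an interval of 0.677 to 0.991. Cars2 (cysteine, 1.97 and 1.52 FPKM) and Vars2 (valine, 1.65 and 1.34 FPKM) had intervals that include 1. So did 4 of the 5 members under the level filter: Ears2 (glutamate) at 0.962 and 0.751 FPKM, Nars2 (asparagine) at 0.794 and 0.648 FPKM, Mars2 (methionine) at 0.660 and 0.650 FPKM, and Pars2 (proline) at 0.475 and 0.711 FPKM. Pars2 rested on 34 and 47 reads, and ratios from 0.944 to 2.40 are within its interval.

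Lars2, the mitochondrial leucine enzyme, stood apart by level, at 1118 (WT) and 1593 (SRSF1-MKO) FPKM (ratio 1.43), above every other member in both libraries. No ratio of whole reads was found for its values, unlike those of the other 37 members. The search could hardly find one, because the approximate reads of Lars2 exceed the largest denominator searched. These were 100736 (WT) and 132443 (SRSF1-MKO). The missing ratio therefore shows only the depth of Lars2 and not which reads were counted for Lars2. Its transcript shares bases 3278 to 3349 with the antisense transcript Gm15564 (98.6% identity over 72 bases) and bases 3233 to 3329 with the transcript AA474408 (94.8% over 97 bases). The table holds 1 value per gene and does not show where on the transcript the reads lie, so its level is uncertain as a measure of the enzyme's mRNA. Without Lars2 the mitochondrial enzymes summed to 60.9 FPKM (WT) and 63.5 FPKM (SRSF1-MKO), or 1.04 times. The cytosolic enzymes summed to 382 and 642 FPKM, a ratio of 1.68, and all genes of the table to 462919 and 575130 FPKM, a ratio of 1.24.

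Enzymes for the same amino acid were set side by side in 17 pairs of a cytosolic and a mitochondrial gene. The level filter was not applied to the pairs. In 12 pairs the cytosolic ratio was the larger, and in 10 of these the counting intervals did not overlap. Those 10 include the pairs of Ears2, Nars2 and Wars2, which were under the level filter, and of Lars2, whose reads are approximate. The widest gap was in serine, where Sars was 3.22-fold higher and Sars2 was at 0.532 of its WT level, so that the cytosolic mRNA stood at 5.86 times the mitochondrial one in WT and 35.4 times in SRSF1-MKO. For asparagine the 2 mRNAs stood at a ratio of 50.6 in WT and 142 in SRSF1-MKO, for threonine at 4.95 and 17.5, and for cysteine at 6.00 and 15.6. Nars2 rested on only 69 (WT) and 52 (SRSF1-MKO) reads, and its own interval of 0.559 to 1.19 includes 1. The threonine values leave out Tarsl2, which was at 26.8 (WT) and 14.1 (SRSF1-MKO) FPKM and is described below. With Tarsl2 included, both threonine values would be larger and the fold between them smaller. The mitochondrial ratio was the larger for isoleucine, tyrosine, valine, for Farsb with Fars2 and for Eprs with Pars2; of these 5 pairs, intervals were apart for isoleucine and for Farsb. Enzymes that appear in several pairs are not independent, and genes are not replicates of a genotype.

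**Figure D3:**
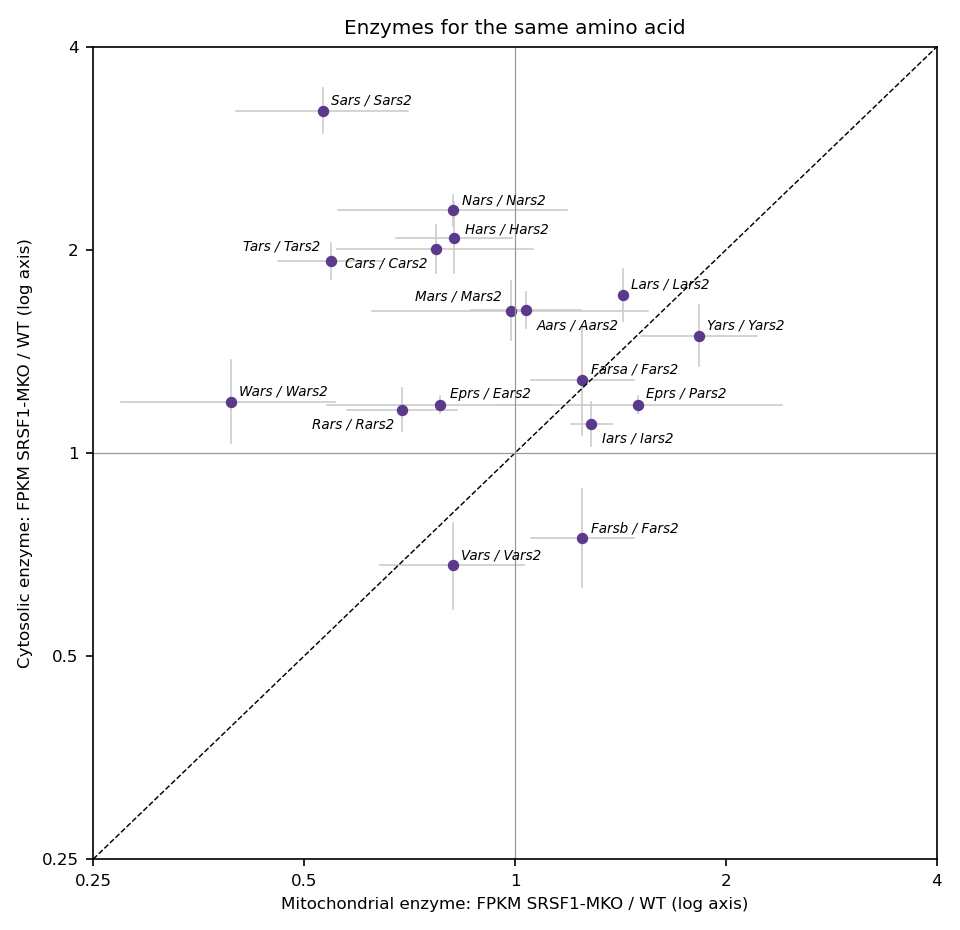
Ratio of FPKM between SRSF1-MKO and WT for the cytosolic enzyme (vertical, log axis) against that for the mitochondrial enzyme of the same amino acid (horizontal, log axis), with 95% counting intervals as grey bars and a dashed line of equal ratios. Of the 17 pairs, 12 lie above the dashed line, with Sars and Sars2 (3.22 and 0.532) farthest from it. Mitochondrial enzymes under the level filter are included.

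Of 12 partner genes of tRNA charging, 2 passed 1.5-fold upwards and 2 downwards (median log2 ratio 0.12), against 23.7% and 8.13% of all genes. Xpot, which exports tRNA from the nucleus, was at 3.76 (WT) and 8.78 (SRSF1-MKO) FPKM (ratio 2.34, interval 2.10 to 2.60), and Eef1e1 was the other higher gene. Tarsl2, a relative of the cytosolic threonine enzyme, was lower, at 26.8 (WT) and 14.1 (SRSF1-MKO) FPKM (ratio 0.525, interval 0.486 to 0.568), where Tars was 1.93-fold higher. Tarsl2 was about as abundant as Tars in WT, at 26.8 and 25.9 FPKM. The counts, medians and sums of cytosolic enzymes above leave Tarsl2 out. Counted with those enzymes, Tarsl2 would have been the only one called lower at 1.5-fold without scaling. Gatb, listed in the table under its older name Pet112, is a subunit of the amidotransferase that makes glutaminyl-tRNA in mitochondria; it was at 2.56 (WT) and 0.751 (SRSF1-MKO) FPKM (ratio 0.293, interval 0.216 to 0.393). The other subunits, Gatc (11.4 and 10.7 FPKM) and Qrsl1 (3.40 and 3.54 FPKM), had ratios of 0.939 and 1.04.

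**Figure D4:**
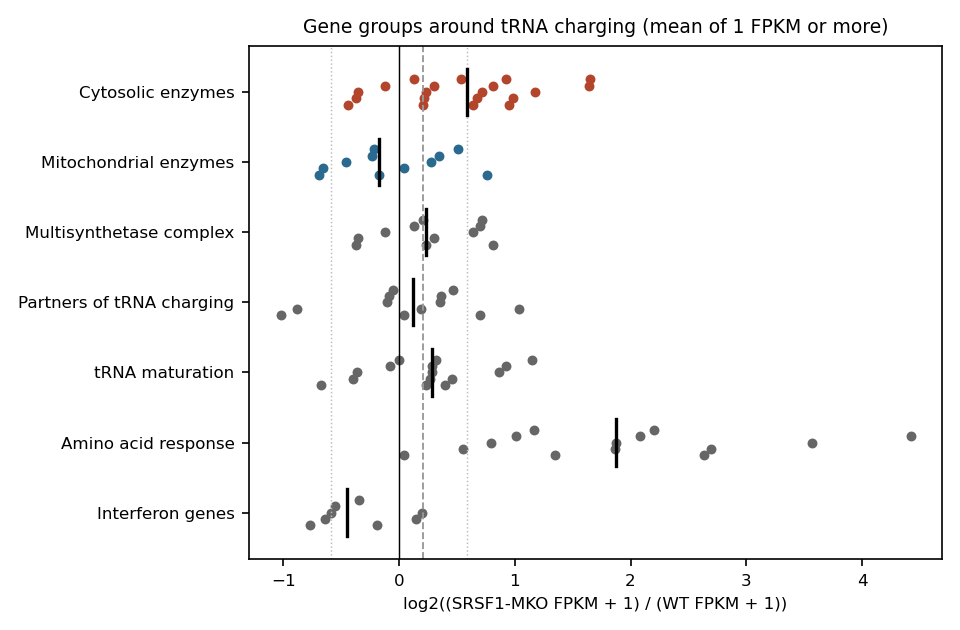
log2((SRSF1-MKO FPKM + 1)/(WT FPKM + 1)) for genes averaging at least 1 FPKM in 7 gene groups, each point a gene and each black bar a group's median; the dashed line is the median of all genes tested (0.21) and dotted lines mark 1.5-fold. The amino acid response genes lie farthest to the right (median 1.87), the cytosolic enzymes next (0.59), and the mitochondrial enzymes (-0.18) and interferon genes (-0.45) to the left of 0.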

How the data were processed

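RNA sequencing gave 1 library per genotype. The authors deposited 1 table of FPKM values, 1 column per genotype; the unit is taken from the table's name and values. Per the submitters' processing notes, Bowtie and build mm10 were used; the sources used here do not state the annotation, gene lengths or counting.

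Read numbers were recovered because FPKM moves in steps of 1 read. Over the 19042 genes detected in both columns, 95.4% of ratios were a fraction of whole numbers (denominators to 10000, relative tolerance 1e-13) times the constant 1.08, against 0.583% with a slightly wrong constant. The commonest total implied by 650 genes was 23146640 reads for WT. A gene's reads are the smallest numbers whose implied length is whole and holds the longest coding sequence (GENCODE M21), so true reads may be a multiple and intervals too wide; Lars2 reads are approximate. Intervals are Clopper-Pearson intervals.

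Genes were compared as log2 ratios with a pseudocount of 1 at a mean of 1 FPKM or more, counted at 1.5-fold. Promoters came from the RefSeq table for 29 of 38 members; no protein sequence was analysed here. Shared stretches were found with BLAST+ 2.17.0 at 94% identity or more on either strand, and the strand of a match was not kept. Recovery of the constant, the library total and the whole-number fractions, the calls and the intervals were tested on simulated data (Python 3.11.15, SciPy 1.17.1). That test used the known simulated lengths and did not cover the choice of a gene's reads from its coding length. Named genes are all members, Srsf1, a few ATF4 pathway genes and up to 6 genes of each list past 1.5-fold. Genes sharing sequence with a member's transcript, Gm4849, Chac1, Gatc, Qrsl1, Lyz2, Ptprc, S100b, Cdh15, Myf5 and Pax7 were added after their values were seen. Members and lists were chosen with earlier results of these data known. Alternatives covered the pseudocount, level filter, scaling, counting limit and membership. Some items are not reported here.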

Additional observations from a re-analysis of the deposited data

How the results depend on the processing

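No paired analysis was possible because each genotype has 1 library, and no library could be left out. Under the scaling to the all-gene median, cytosolic enzymes had a median log2 ratio of 0.26 with 5 higher and 3 lower, and mitochondrial enzymes a median of -0.37 with 0 higher. With both columns scaled to the same FPKM sum the cytosolic values were 0.30, 6 and 3, and 0 mitochondrial enzymes were higher. At a counting limit of 2-fold, 3 cytosolic and 0 mitochondrial enzymes were higher and 0 mitochondrial enzymes lower. Without Gars and Kars the cytosolic median was 0.42, with 8 of 18 higher. With a filter at a mean of 5 FPKM, 5 mitochondrial enzymes were left, with a positive median of 0.35 and 0 lower, so the negative mitochondrial median rests on members below that level. Leaving out Lars2, an alternative chosen after seeing the data, gave a mitochondrial median of -0.20. Pseudocounts of 0.1 and 0.01 changed the sign of 0 of 38 members. The 2 scalings changed it for 7 and 6 members, none of them past 1.5-fold as reported: Eprs, Iars, Rars, Wars, Aars2 and Aimp1 under both, and Fars2 under the all-gene median. Depth limits the mitochondrial enzymes most, where reads per library go down to 34.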

Other observations

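Of the 15 tRNA maturation genes averaging at least 1 FPKM, 3 passed 1.5-fold upwards and 1 downwards, with a median log2 ratio of 0.29; these counts are near the 23.7% and 8.13% of all genes. Trnt1, which adds the terminal CCA to which the amino acid is attached, was at 7.05 (WT) and 16.8 (SRSF1-MKO) FPKM (ratio 2.39, interval 2.03 to 2.81). The RNase P subunit genes Rpp30 (3.96 and 8.39 FPKM) and Pop4 (3.17 and 6.58 FPKM) were higher, and Rpp40 was lower, at 1.99 (WT) and 0.873 (SRSF1-MKO) FPKM.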
